A study of Mus musculus with 16 samples.

Results

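Complex I (NADH:ubiquinone oxidoreductase) is the enzyme by which NADH enters the respiratory chain. The transcripts described here are its subunits, taken as the genes whose symbol begins with Ndufa, Ndufab, Ndufb, Ndufc, Ndufs or Ndufv, or mt-Nd, followed by a number, without the Ndufaf assembly factors, and with at least 1 CPM (counts scaled to library size) in at least 4 of 16 libraries. There were 44 such genes among 52143 in the count table. All 44 passed the filter for testing, which left 11324 genes. Of the 44, 37 are nuclear genes spread over 15 chromosomes and 7 are encoded in mitochondrial DNA. The rule takes symbols, so *Ndufa4*, whose product is nowadays counted with complex IV (cytochrome c oxidase), is among them and was placed in no module.

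Liver RNA came from male C57BL6/J mice, 6-week-old at the start, in groups of 4. Mice were fed chow (Mouse Diet 9F) or a high-fat diet (HFD, D12492) for 12 weeks. Every 2 weeks they received either saline or 3 mg/kg of an siRNA against *Fgfr4* linked to N-acetylgalactosamine, a sugar that hepatocytes take up. The groups are called Chow and HFD where mice had saline, and Chow/FGFR4 KD and HFD/FGFR4 KD where they had the siRNA (KD for knockdown). No control siRNA was given, so what any siRNA does and what the loss of FGFR4 does cannot be told apart. In a piece of liver, fewer cells of a type and less RNA per cell cannot be told apart either.

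Library totals ran from 3445949 to 5976449 estimated counts, and the lowest count of any subunit in any library was 47. *Fgfr4*, the targeted gene, lay between 21.7 and 36.2 CPM in the 8 saline libraries and between 2.43 and 6.15 CPM in the 8 KD libraries. Markers of hepatocytes made up 60597 to 79540 CPM in each library, whereas lymphocyte and skeletal muscle markers were too low to be tested. HFD/FGFR4 KD 1 stood apart from its group in several values given below, and results that rest on it are also given without it.

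Complex I is L-shaped, with an arm in the mitochondrial matrix and an arm in the inner membrane. The N module at the tip of the matrix arm takes electrons from NADH. The Q module passes them to ubiquinone, and the membrane modules pump protons. A conserved core of 7 nuclear and 7 mitochondrially encoded subunits carries out the reaction, and accessory subunits surround it. Liver has many mitochondria and relies on this step for the oxidation of fatty acids. *Ndufa5* encodes an accessory subunit of the Q module, and *mt-Nd1* encodes a core subunit of the membrane arm next to the ubiquinone site. Whether *Ndufa5* moved alone or with the rest of the complex was the question asked of these data.

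*Ndufa5* (ENSMUSG00000023089) lies on chromosome 6, chr6:24518666-24528013 in GRCm38, on the minus strand. The 30 bases below surround the match to GCGC, any base and then TGCGC, the binding motif of NRF1 (a factor known for regulating nuclear genes of the respiratory chain), in its promoter and in those of the 6 other subunits that held one. They are shown because these subunits share the motif with *Ndufa5* and can be compared with it. Capitals mark the match, which may lie on either strand.
Ndufa5: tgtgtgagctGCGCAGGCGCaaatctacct
Ndufa6: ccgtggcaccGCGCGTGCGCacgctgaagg
Ndufa8: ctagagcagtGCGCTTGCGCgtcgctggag
Ndufa11: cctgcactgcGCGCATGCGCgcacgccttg
Ndufb4: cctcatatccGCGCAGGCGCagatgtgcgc
Ndufs5: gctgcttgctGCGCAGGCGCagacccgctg
Ndufs6: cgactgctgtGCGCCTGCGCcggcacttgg

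The sequences are from RefSeq on GRCm38.p6, written 5′ to 3′ on the strand of the gene. The window of *Ndufa5* is chr6:24527697-24527726 on the minus strand, inside the span that GENCODE gives the gene. Those of the others are chr15:82354249-82354278 for *Ndufa6* (minus), chr2:36049349-36049378 for *Ndufa8* (minus), chr17:56717692-56717721 for *Ndufa11* (plus), chr16:37654371-37654400 for *Ndufb4* (minus), chr4:123718265-123718294 for *Ndufs5* (minus) and chr13:73328479-73328508 for *Ndufs6* (minus). *Ndufb4* held 3 matches, and the one nearest its start is shown. A promoter here is 250 bases before and 50 bases after the annotated start, and 33 of the 37 nuclear subunits had an entry. The NRF1 motif was found in 7 of these 33 (21.2%) and in 4.59% of 32817 mouse promoters. The YY1 motif AANATGGC was found in 12 of the 33 (36.4%) and in 6.04% of all promoters. The ERR motif TNAAGGTCA was found in 1, *Ndufb4*, which is 3.03% against 1.28%. Both strands were searched, and no motif contains another. A subunit was counted when any of its promoter entries held the motif, whereas the shares over all promoters are per entry. A match is a description of the letters and not a site shown to be bound.

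Subunit mRNA levels spanned a wide range. Per kilobase of transcript, the nuclear subunits lay between 13.1 and 342 CPM with a median of 72.5 CPM per kilobase over all 16 libraries. Mitochondrially encoded subunits lay between 476 and 3558 CPM per kilobase, all above the highest nuclear one. The highest was *mt-Nd4*, a core proton-pumping subunit. *Ndufa4* was the highest nuclear gene at 342 CPM per kilobase. *Ndufa5*, at 45.8 CPM per kilobase, was at place 27 of the 37 nuclear genes.

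On HFD, KD of FGFR4 was accompanied by a large decrease of *Ndufa5* that the rest of the complex did not share in size. In HFD mice *Ndufa5* was at 32.3, 35.8, 37.0 and 33.6 CPM, a mean of 34.7 ± 2.11 (SD, n = 4). In HFD/FGFR4 KD mice it was at 15.6, 13.9, 15.1 and 12.1 CPM, a mean of 14.2 ± 1.52 (SD, n = 4). The groups did not overlap, and each KD library was under the lowest HFD library. *Ndufa5* kept 40.8% of its HFD mean, and the counts behind these values were 167 to 242 in HFD and 47 to 91 in HFD/FGFR4 KD. By limma-voom it fell by 1.28 on the log2 scale (SE 0.130, 95% interval -1.55 to -1.003, adjusted p 9.06e-05). By p-value it was the third of 11324 genes.

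**Figure D1:**
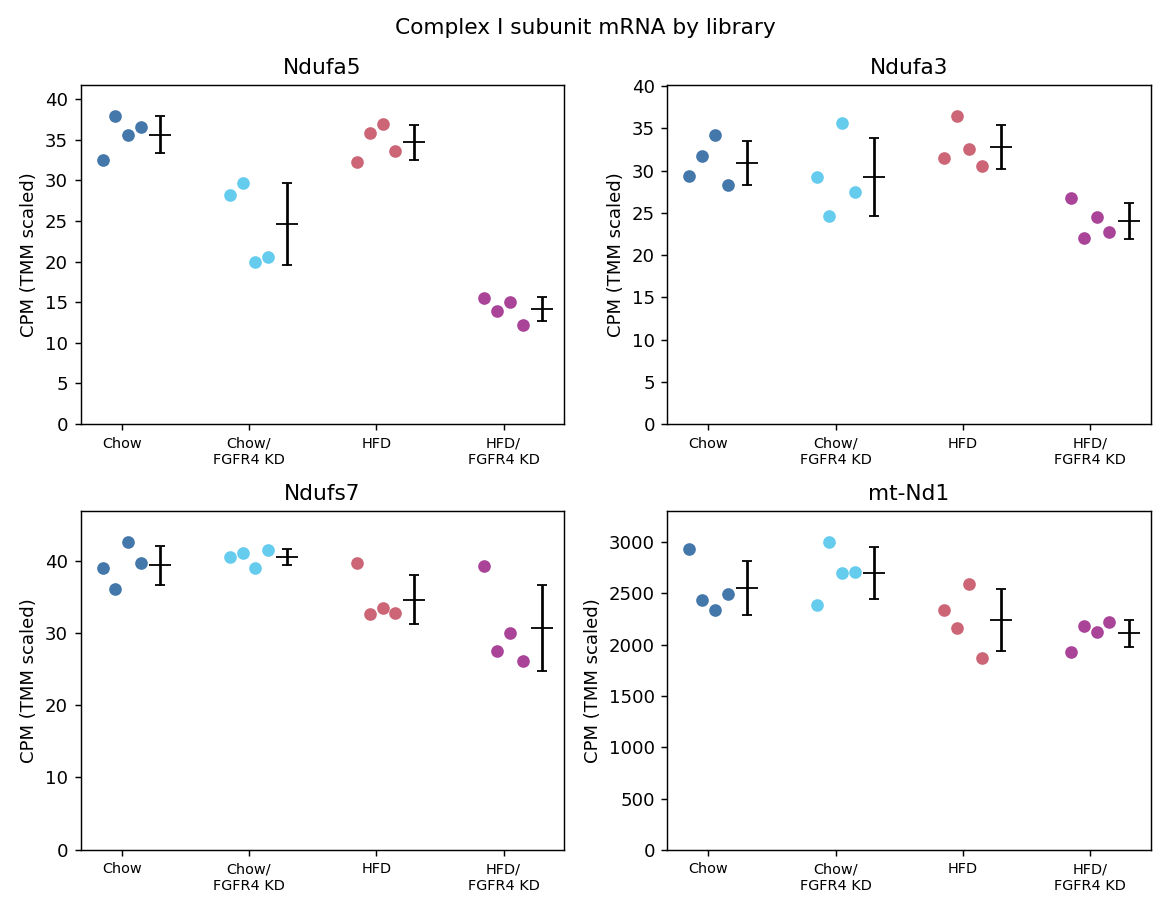
CPM with TMM scaling (y axis, from 0) of Ndufa5, Ndufa3, Ndufs7 and mt-Nd1 in each of the 16 libraries, by group (x axis), with black bars for the mean and SD of 4 libraries. Ndufa5 sits between 12.1 and 15.6 CPM in HFD/FGFR4 KD, under every other library, while mt-Nd1 differs more by diet than by KD.

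*Ndufa3*, an accessory subunit of the membrane arm, was the other subunit called on HFD. It was at 31.4, 36.5, 32.5 and 30.6 CPM in HFD and at 26.8, 22.1, 24.5 and 22.7 CPM in HFD/FGFR4 KD, again without overlap. It fell by 0.44 (SE 0.110, 95% interval -0.68 to -0.21, limma-voom adjusted p 0.102). This call was kept under all 12 other ways of fitting at the same threshold. It was lost when HFD 3 or HFD/FGFR4 KD 4 was left out, where the adjusted p rose to as much as 0.291.

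In all, 2 of 44 subunits (4.55%) were called at the threshold of the study, a p under 0.05 with an adjusted p under 0.25, and both were lower. Among all genes 3.14% were called, 1.64% as lower. With a library of these 2 groups left out, this share ran from 0.786% without HFD 3 to 5.49% without HFD 2, and library totals gave 1.01%. At an unadjusted p under 0.05 there were 3 (6.82%), beside 11% of all genes. At an adjusted p under 0.05 *Ndufa5* alone was called, beside 0.274% of all genes. Non-overlapping groups were seen for 3 subunits (6.82%), all lower in KD, beside 3.33% of all genes in that direction. The third was *Ndufa10*, an accessory subunit beside the proximal proton pump. *Ndufa10* was at 115.6, 130.2, 125.7 and 112.1 CPM in HFD and at 105.8, 105.9, 102.9 and 102.2 CPM in HFD/FGFR4 KD. It did not pass, with -0.21 on the log2 scale (SE 0.0792, adjusted p 0.326).

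The other 43 subunits had a median log2 change of -0.07, where the median of all genes was 0.00. Counting *Ndufa5*, 31 of 44 lay below 0. Of the 43, 41 were within 0.3 of 0 in either direction, and their changes ran from -0.48 for *mt-Nd3* to 0.11 for *mt-Nd4l*. The 95% interval of 42 of them lay wholly above that of *Ndufa5*, and the exception was *mt-Nd3*, a core membrane subunit, whose interval was -1.06 to 0.10. *mt-Nd1* had a change of -0.08 (SE 0.105, 95% interval -0.30 to 0.14, adjusted p 0.837). The position of *Ndufa5* in the complex was also followed within each library, as its log2 CPM minus the median of the other 43. This difference was -0.65, -0.67, -0.43 and -0.39 in HFD and -1.71, -1.72, -1.60 and -1.99 in HFD/FGFR4 KD. The groups did not overlap, and a scaling factor for a whole library largely cancels in this difference. *Ndufa5* made up 1.45% to 1.70% of the summed CPM of the nuclear subunits in HFD and 0.566% to 0.767% in HFD/FGFR4 KD. Without HFD/FGFR4 KD 1, the change of *Ndufa5* was -1.32 (adjusted p 0.000581) and the median of the others -0.08.

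**Figure D2:**
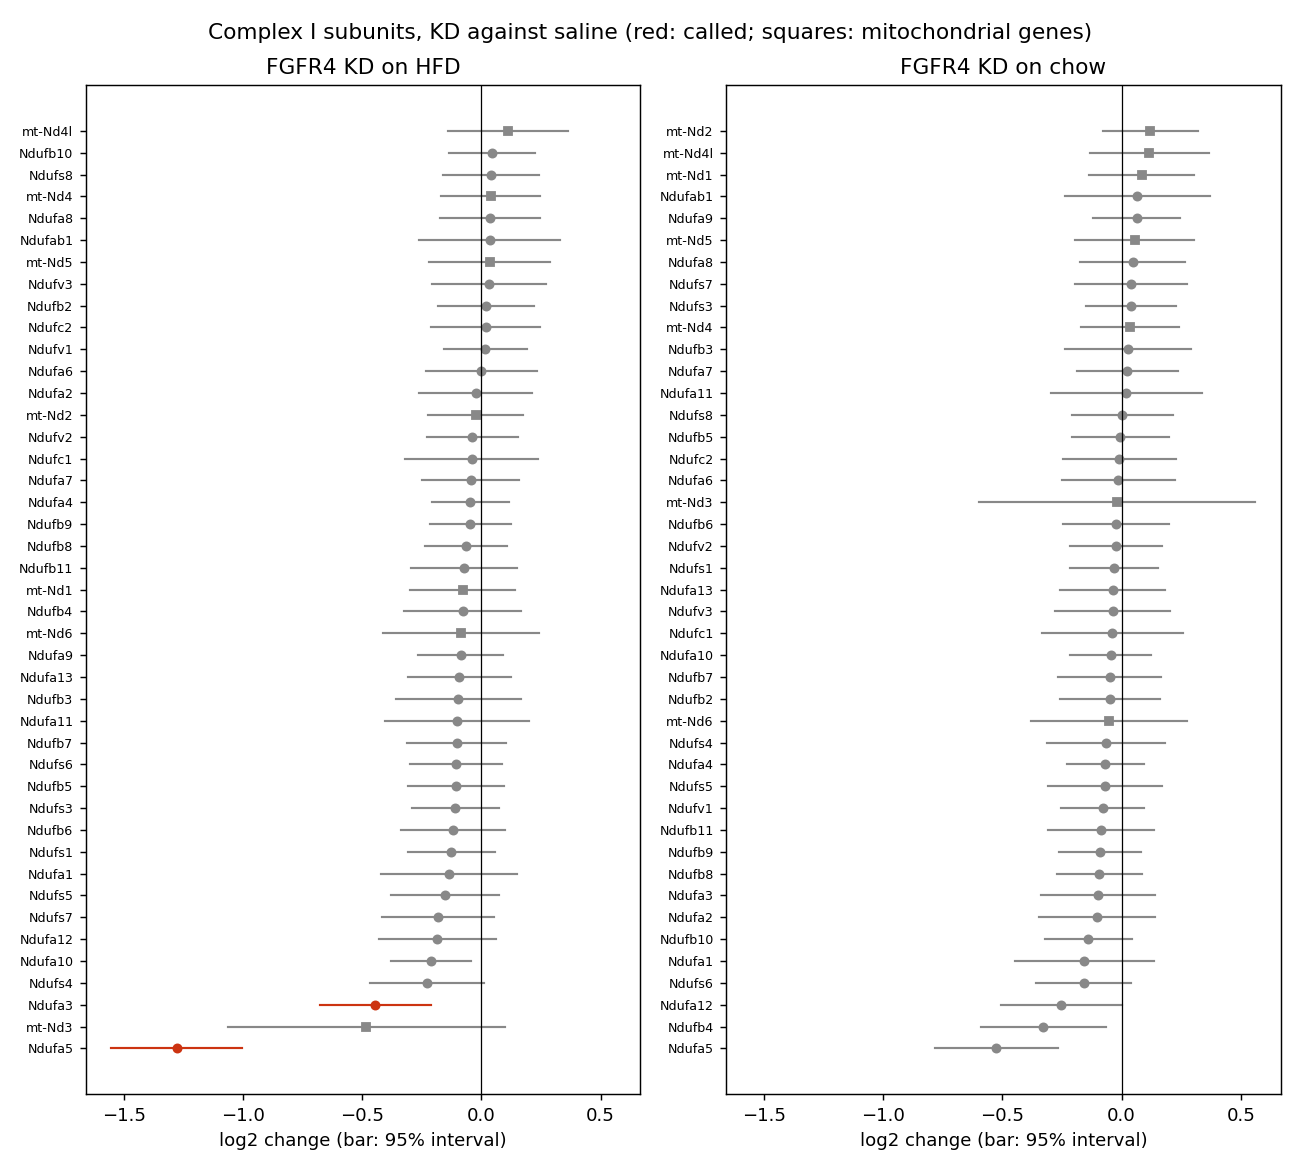
Log2 change with KD (x axis) of 43 of the 44 subunits (y axis, ordered by change) on HFD and on chow, with 95% intervals from limma-voom. Red points passed the threshold of the study and squares are mitochondrially encoded genes; on HFD Ndufa5 at -1.28 lies away from the rest, which run from -0.48 to 0.11.

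Of the Q module, *Ndufa5* alone was called on HFD. *Ndufs3*, a core subunit early in assembly, had a log2 change of -0.11 (SE 0.0857). *Ndufs8*, which holds iron-sulfur clusters, had 0.04 (SE 0.0950). *Ndufa9*, an accessory subunit at the joint with the membrane arm, had -0.09 (SE 0.0846). *Ndufs7*, a core subunit that carries the last iron-sulfur cluster before ubiquinone, had -0.18 (SE 0.111, adjusted p 0.596). *Ndufs7* was higher in HFD/FGFR4 KD 1, at 39.3 CPM, than in the other libraries of that group at 27.6, 29.9 and 26.1 CPM. The 10 N module genes ran from -0.23 to 0.03 with none called, the 14 proximal membrane genes from -0.48 to 0.11 with *Ndufa3* called, and the 13 distal membrane genes from -0.12 to 0.04 with none called.

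Sequence shared with other genes bears on some of these values, because pseudoalignment divides reads between near-identical transcripts. Of the 31-base words of *Ndufa5* transcripts, 0.972% occur in other genes, and of those of *Ndufa3*, 0%. For *mt-Nd3* the share was 98.1%. Most of it is with *Gm28438*, a copy of this stretch in the table, which held 16231 counts over all libraries beside 13229 for *mt-Nd3*. With the copy added, a step chosen after seeing the data, *mt-Nd3* was at 375.9, 424.1, 414.4 and 406.2 CPM in HFD and at 322.3, 357.4, 357.7 and 339.8 CPM in HFD/FGFR4 KD. Its change then was -0.23 (SE 0.107, limma-voom adjusted p 0.433) in place of -0.48 (SE 0.275). *mt-Nd4* and *mt-Nd4l* share 62.8% and 98.9% of their words with pseudogenes to which 0 counts were assigned. *Ndufab1* shares 11.7% of its words with other genes, and its sign rests on them. Its change with KD on HFD was 0.04 (SE 0.140), or -0.14 (SE 0.108) with counts of its copies added. On chow it was 0.07 (SE 0.144), or -0.08 (SE 0.110) with the copies, and it was not called in either form.

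On chow, the same direction was seen for *Ndufa5* at a smaller size, and no subunit was called. *Ndufa5* was at 32.5, 37.9, 35.6 and 36.6 CPM in Chow, a mean of 35.6 ± 2.32 (SD, n = 4). In Chow/FGFR4 KD it was at 28.3, 29.6, 19.9 and 20.6 CPM, a mean of 24.6 ± 5.05 (SD, n = 4). The groups did not overlap, but the KD libraries lay in pairs, with replicates 1 and 2 above replicates 3 and 4. In the same order, *Fgfr4* was at 5.93, 6.15, 4.22 and 2.75 CPM in these 4 libraries. In the 4 HFD/FGFR4 KD libraries, where *Ndufa5* was at 15.6, 13.9, 15.1 and 12.1 CPM, *Fgfr4* was at 2.81, 2.43, 5.29 and 4.39 CPM. On chow, replicates 1 and 2 had more of both genes than replicates 3 and 4, a split made after the values were seen. Replicate numbers do not pair mice between the diets, and whether both genes go together was not tested.

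The log2 change of *Ndufa5* on chow was -0.52 (SE 0.122, 95% interval -0.78 to -0.27, limma-voom adjusted p 0.976). By p-value it was the fourth of 11324 genes, in a comparison where 0.00883% of all genes were called. Among the 44 subunits limma-voom called 0, and edgeR and DESeq2 also called 0. At an unadjusted p under 0.05 there were 2 subunits (4.55%), *Ndufa5* and *Ndufb4*, beside 4.59% of all genes. *Ndufa5* was the 1 subunit (2.27%) with non-overlapping groups, lower in KD, beside 1.19% of all genes in that direction. *Ndufb4*, an accessory subunit of the distal membrane arm, had a change of -0.33 (SE 0.124, adjusted p 0.976). It shares 19.1% of its words with other genes, and with counts of a copy added the change was -0.23 (SE 0.0858, adjusted p 0.976). *Ndufa12*, an accessory subunit of the N module, followed by p-value with -0.25 (SE 0.120, adjusted p 0.976). It shares 20.7% of its words with other genes, and with counts of a copy added the change was -0.13 (SE 0.113, adjusted p 0.976).

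The other 43 subunits had a median of -0.03 on chow and 30 of 44 lay below 0. Without Chow 3, 19 of 44 lay below 0 and the median of all subunits was 0.02, and with library totals 16 lay below 0 and it was also 0.02. Their changes ran from -0.33 for *Ndufb4* to 0.12 for *mt-Nd2*, and 42 of 43 were within 0.3 of 0. The 95% interval of 27 of the 43 lay wholly above that of *Ndufa5*. *mt-Nd1* was at 0.08 (SE 0.104, adjusted p 0.976), and of the Q module *Ndufs8*, *Ndufs3*, *Ndufs7* and *Ndufa9* lay between 0.00 and 0.06. Within libraries, *Ndufa5* minus the median of the others was -0.66, -0.44, -0.88 and -0.55 in Chow and -0.91, -0.95, -1.37 and -1.39 in Chow/FGFR4 KD. These groups did not overlap, although the highest KD value and the lowest Chow value were close.

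**Figure D3:**
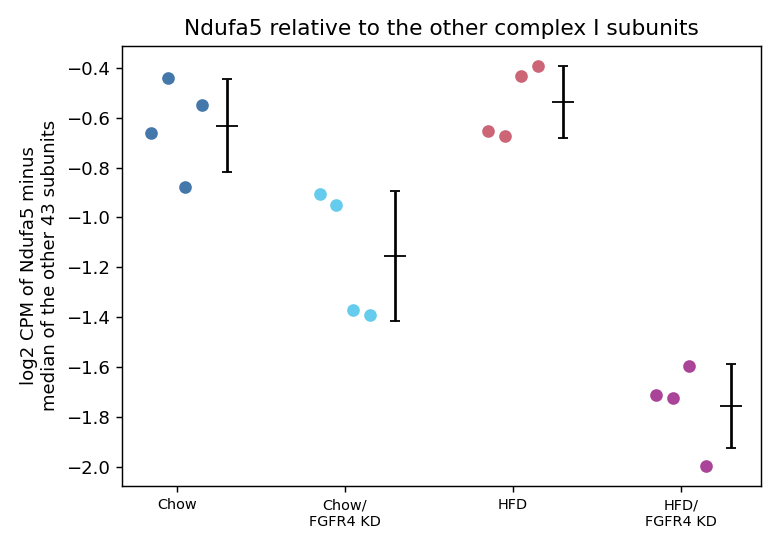
Log2 CPM of Ndufa5 minus the median log2 CPM of the other 43 subunits (y axis) in each library, by group (x axis), with black bars for the mean and SD of 4 libraries. Both saline groups lie above their KD groups, and HFD/FGFR4 KD, from -1.99 to -1.60, lies below all other libraries.

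The KD effect on *Ndufa5* differed between the diets by -0.75 on the log2 scale (SE 0.179, 95% interval -1.13 to -0.38), which did not pass with adjustment over all genes (limma-voom adjusted p 0.492). It was gene 11 of 11324 by p-value, in a test that called 0.0353% of all genes and 0 subunits by limma-voom or edgeR. DESeq2 called 1 subunit, *Ndufa5*, with a difference of -0.77 and an adjusted p of 0.141. *Ndufa5* and *Ndufa3* had an unadjusted p under 0.05, which is 4.55% of the subunits beside 6.76% of all genes. For *Ndufa3* the difference was -0.34 (SE 0.158, adjusted p 0.730). By mean CPM of *Ndufa5* Chow came first and HFD next, which overlapped, then Chow/FGFR4 KD, then HFD/FGFR4 KD, and neither KD group overlapped with another group. These comparisons share their saline and KD libraries and are not independent of one another.

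In saline mice the diet left *Ndufa5* near its level on chow. Its log2 change with HFD was -0.04 (SE 0.111, 95% interval -0.27 to 0.20, adjusted p 0.865). Scaling by library totals gave 0.24 (adjusted p 0.192), in a setting that moved the median of all genes to 0.29. *mt-Nd1* had a change of -0.19 (SE 0.105, adjusted p 0.265). The other 43 subunits had a median of -0.06, and 28 of 44 lay below 0.

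The limma-voom fit called 4 of 44 subunits (9.09%) with HFD in saline mice, where 26% of all genes were called. Of these, 3 were lower and 1 was higher, beside 12.7% and 13.3% of all genes. At an adjusted p under 0.05 it called 0, against 9.2% of all genes. *Ndufa4* fell by 0.20 (SE 0.0758, adjusted p 0.105), from 161.2 to 183.9 CPM in Chow to 140.2 to 156.1 CPM in HFD. *Ndufv3*, an accessory subunit of the N module, fell by 0.25 (SE 0.112, adjusted p 0.170). *Ndufb10*, an accessory subunit of the distal membrane arm, fell by 0.18 (SE 0.0848, adjusted p 0.183). *Ndufa10* rose by 0.19 (SE 0.0793, adjusted p 0.147), from 95.4 to 117.8 CPM in Chow to 112.1 to 130.2 CPM in HFD. Groups did not overlap for 3 subunits (6.82%), *Ndufa4* and *Ndufb10* among them, all lower with HFD, beside 7.76% of all genes in that direction. With library totals, the changes of *Ndufa4*, *Ndufv3* and *Ndufb10* were above 0 and 15 subunits were called, all as higher, beside 37.9% of all genes called in that setting. The sign of these 3 changes therefore rests on the scaling, while the median of all subunits was below that of all genes in both, at -0.05 against 0.01 and at 0.23 against 0.29. Of the 4 calls, *Ndufa4* was lost without Chow 3, Chow 4 or HFD 4, and each of the other 3 was lost without at least 4 of the 8 libraries in turn. Without HFD 4, 1 subunit was called. Without Chow 3, 2 were called, beside 26.5% of all genes.

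Under KD, the diet was accompanied by lower *Ndufa5* and by lower values of several other subunits. *Ndufa5* fell by 0.79 from Chow/FGFR4 KD to HFD/FGFR4 KD (SE 0.140, 95% interval -1.09 to -0.49, limma-voom adjusted p 0.00773), and its groups did not overlap. *Ndufs7*, its core partner in the Q module, fell by 0.41 (SE 0.114, adjusted p 0.0613). *Ndufs7* was at 40.5, 41.0, 38.9 and 41.5 CPM in Chow/FGFR4 KD and at 39.3, 27.6, 29.9 and 26.1 CPM in HFD/FGFR4 KD. The overlap came from HFD/FGFR4 KD 1, without which 3 of 3 libraries lay below the KD libraries on chow.

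*mt-Nd1* and *mt-Nd2* fell together under KD. *mt-Nd1* was at 2388, 3006, 2703 and 2705 CPM in Chow/FGFR4 KD and at 1925, 2178, 2121 and 2217 CPM in HFD/FGFR4 KD, with no overlap. It fell by 0.35 (SE 0.104, 95% interval -0.57 to -0.13, limma-voom adjusted p 0.0736). *mt-Nd2*, a core proton-pumping subunit, was at 2984, 3970, 3213 and 3345 CPM and at 2650, 2814, 2834 and 2827 CPM, and it fell by 0.27 (SE 0.0947, adjusted p 0.121). With each library left out in turn, HFD/FGFR4 KD 1 among them, *mt-Nd1* kept its call, at -0.42 to -0.30. *mt-Nd2* was at -0.34 to -0.19 and lost its call only without Chow/FGFR4 KD 2 (limma-voom adjusted p 0.272). *Ndufb3*, an accessory subunit of the distal membrane arm, was at 39.5, 37.1, 50.7 and 33.5 CPM and at 35.2, 30.2, 30.1 and 28.7 CPM. Its groups overlapped, and it fell by 0.35 (SE 0.127, adjusted p 0.136).

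At the threshold of the study, 9 of 44 subunits (20.5%) were called with HFD under KD, where 20.2% of all genes were called. All 9 were lower, and 10.1% of all genes were called as lower. Beside the 5 above these were *Ndufb6*, *Ndufb5* and *Ndufa3*, membrane arm accessory subunits, and *Ndufa4*, with changes from -0.28 to -0.18. At an adjusted p under 0.05 *Ndufa5* alone was called, beside 3.1% of all genes. The groups of 6 subunits (13.6%) did not overlap, all lower with HFD, beside 5.61% of all genes in that direction. The other 43 subunits had a median of -0.08 where that of all genes was -0.01, and 33 of 44 lay below 0. The highest was *mt-Nd5* at 0.14 and the lowest after *Ndufa5* was *mt-Nd3* at -0.51, or -0.07 with its copy added. Of the 43, 36 had an interval wholly above that of *Ndufa5*. Without HFD/FGFR4 KD 1, 9 subunits were called and *Ndufa5* was at -0.83 (adjusted p 0.00854). Without HFD/FGFR4 KD 3 or HFD/FGFR4 KD 4, 5 and 4 were called. The share of all genes called also moves with the library left out. It was 13.2% without Chow/FGFR4 KD 4, where 7 subunits were called. Scaling by library totals left 1 call, *Ndufa5*, beside 20.1% of all genes. It moved the median of all genes to 0.14 and that of the others to 0.07.

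**Figure D4:**
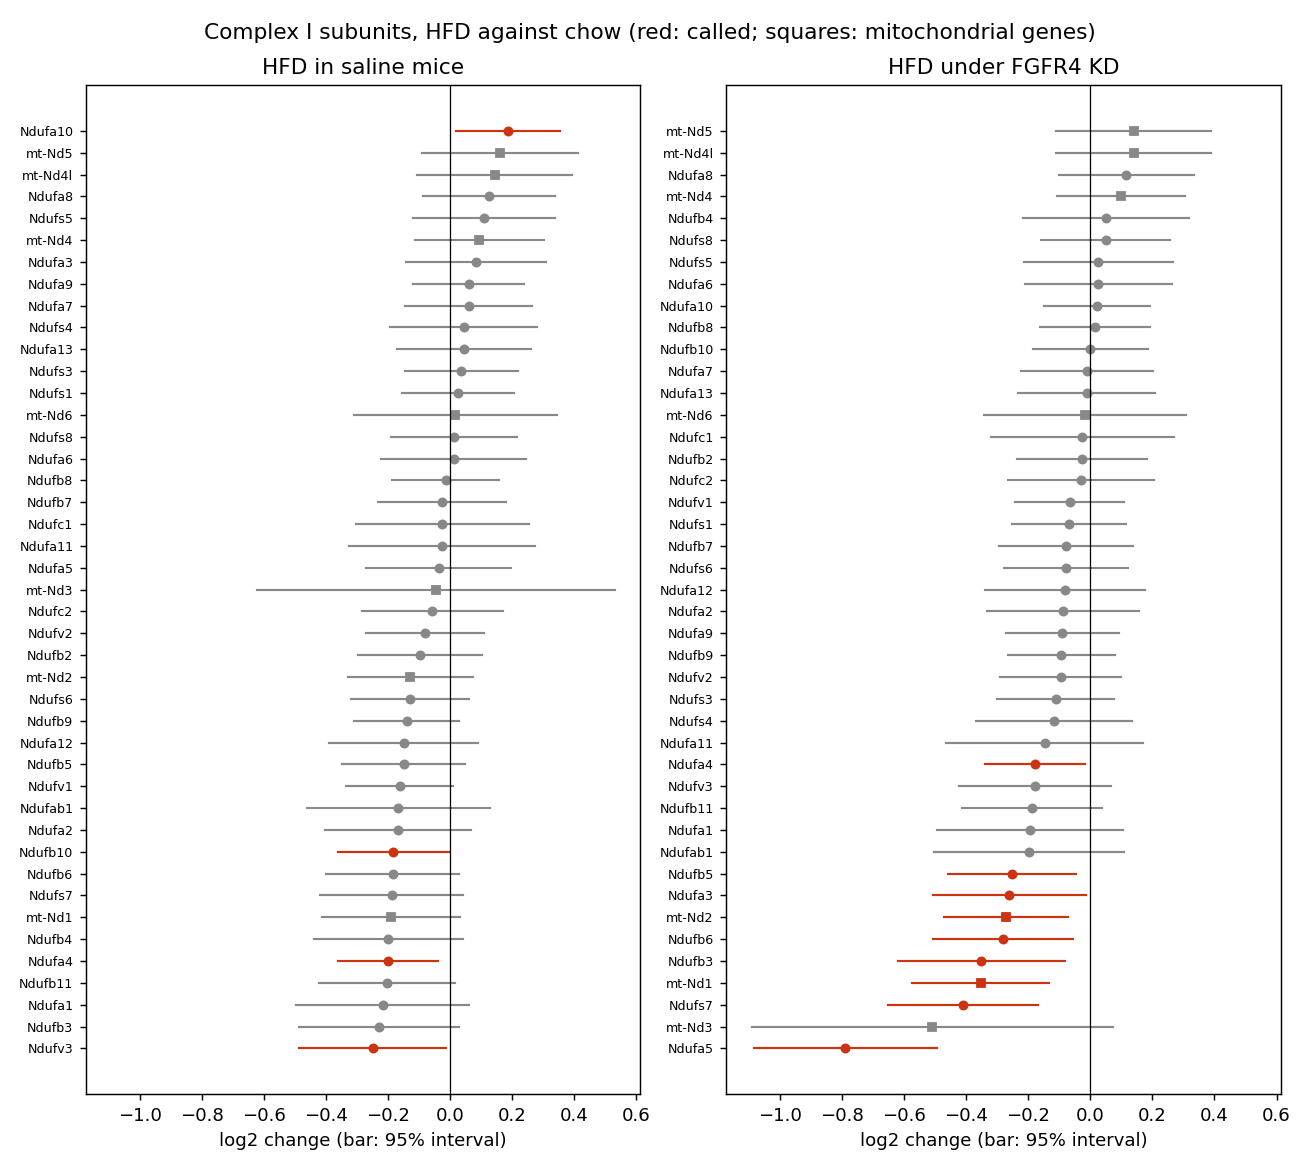
Log2 change with HFD (x axis) of 43 of the 44 subunits (y axis, ordered by change) in saline mice and under KD, with 95% intervals from limma-voom. Red points passed the threshold of the study and squares are mitochondrially encoded genes; in saline mice the points lie between -0.25 and 0.19, and under KD Ndufa5 at -0.79 is the lowest.

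The mitochondrially encoded subunits did not move as 1 block. These genes are transcribed as long precursors that are then cut into single mRNAs. In order along the mitochondrial genome, *mt-Nd1* and *mt-Nd2* come first, *mt-Nd3*, *mt-Nd4l* and *mt-Nd4* follow the genes for complex IV and ATP synthase subunits, and *mt-Nd5* and *mt-Nd6* precede *mt-Cytb*. With HFD under KD, the first 2 were called lower, at -0.35 and -0.27. *mt-Nd4l*, *mt-Nd4* and *mt-Nd5* had changes from 0.10 to 0.14 and were not called. *mt-Cytb*, the mitochondrially encoded subunit of complex III, rose by 0.22 (SE 0.0972, limma-voom adjusted p 0.209). In saline mice *mt-Nd1*, *mt-Nd2* and *mt-Cytb* had changes of -0.19, -0.13 and 0.19, and none of the 13 mitochondrial mRNAs was called. No mitochondrial mRNA was called with KD on either diet.

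**Figure D5:**
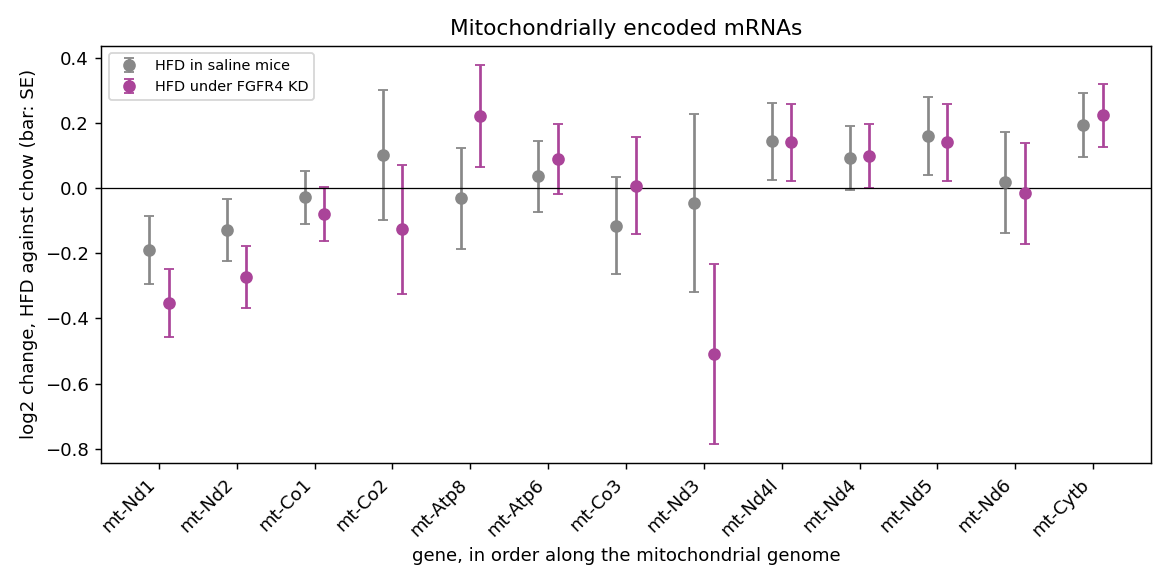
Log2 change with HFD (y axis, bars are SE) of the 13 mitochondrially encoded mRNAs in their order along the mitochondrial genome (x axis), in saline mice (grey) and under KD (purple). Under KD mt-Nd1 and mt-Nd2 lie at -0.35 and -0.27 and mt-Cytb at 0.22, while the wide bar of mt-Nd3 belongs to a gene that shares 98.1% of its words with a copy.

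Complex I mRNA, as a share of each library and not an amount per cell, varied less between groups than *Ndufa5*. Summed over the 37 nuclear subunits, it was 2300 ± 149 CPM in Chow, 2215 ± 75.8 in Chow/FGFR4 KD, 2194 ± 108 in HFD and 2081 ± 80.7 in HFD/FGFR4 KD (mean ± SD, n = 4 each). The ranges overlapped except between Chow and HFD/FGFR4 KD. Without *Ndufa5* these did not overlap either, with a lowest sum of 2157 CPM in Chow and a highest of 2133 CPM in HFD/FGFR4 KD. Summed over the 7 mitochondrial subunits it was 13742 ± 1549, 14398 ± 1522, 13769 ± 626 and 13771 ± 669 CPM in the same order, and the groups overlapped. Mitochondrial genes took 3.6% to 4.5% of all counts in Chow, 3.82% to 4.7% in Chow/FGFR4 KD, 4.66% to 5.17% in HFD and 3.83% to 5.08% in HFD/FGFR4 KD. Chow and HFD did not overlap in these shares, which are of library totals and carry no TMM scaling, unlike the CPM above. The TMM factors ran from 0.836 to 1.03 in Chow and from 1.05 to 1.17 in HFD. *Gm42418*, a gene that overlaps ribosomal RNA, took 11.1% to 22.7% of the counts of a library. It took 22.3% in HFD/FGFR4 KD 1, beside 13.7% to 16.2% in the rest of that group. The part of these shares in the values above was not tested beyond leaving the genes out of the scaling.

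The genes around complex I were examined for company to *Ndufa5*. Of 18 tested assembly factors, which build the complex and are not part of it, 0 were called with KD on HFD by limma-voom, and their median change was -0.05. On chow 0 were also called, with a median of -0.02. *Ndufaf4*, an assembly factor, fell by 0.36 with HFD in saline mice (SE 0.156, adjusted p 0.159). *Foxred1*, an assembly factor, fell by 0.32 with HFD under KD (SE 0.107, adjusted p 0.112). All 4 tested subunits of complex II had changes below 0 with KD on HFD, from -0.27 to -0.03, and 0 were called. Complex III (10 tested), complex IV (13) and ATP synthase (17) also had 0 called on either diet with KD, with medians of -0.05, -0.09 and -0.04 on HFD. With HFD in saline mice *Cyc1* and *Uqcrh* of complex III and *Atp5g1* of ATP synthase fell, by 0.20, 0.23 and 0.19. With HFD under KD *Cox6c* and *Cox8a* of complex IV and *Atp5g1* fell, by 0.23, 0.18 and 0.28. Of 13 genes of mitochondrial biogenesis, 0 were called with KD. *Polg*, the mitochondrial DNA polymerase, rose by 0.23 with HFD in saline mice, and *Twnk*, the mitochondrial helicase, rose by 0.26 with HFD under KD.

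The 6 other subunits with the NRF1 motif shown above did not share the size of the change of *Ndufa5*. With KD on HFD their log2 changes ran from -0.15 to 0.04 with a median of -0.09, and with KD on chow from -0.33 to 0.05 with a median of -0.04. With HFD under KD they ran from -0.15 to 0.12. The 2 nearest protein-coding genes on each side of *Ndufa5* could not be compared with it. *Slc13a1* and *Iqub* on one side, and *Asb15* and *Lmod2* on the other, did not pass the filter, with no library above 1.64 CPM. *Asb15* begins 131 bases from *Ndufa5* on the opposite strand and had at most 0.202 CPM.

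Markers of other cells and of the time of day moved with some of these comparisons, and their part in the values above was not tested. With KD on HFD, 0 of 7 macrophage markers were called, and their sum ran from 95.02 to 175 CPM in HFD and from 78.8 to 146 CPM in HFD/FGFR4 KD. Of 9 stellate and endothelial markers 0 were called, but 9 lay below 0, with a median of -0.21. Erythroid markers had 0 of 5 called and 5 below 0, with a median of -0.35. Neither of 2 tested cholangiocyte markers lay below 0 or was called. Of 6 clock genes with the phase of *Arntl*, 3 were called higher with KD on HFD, *Arntl* by 1.55, *Nfil3* by 1.16 and *Clock* by 0.53. Their sum ran from 87.8 to 105 CPM in HFD and from 119 to 159 CPM in HFD/FGFR4 KD, and from 178 to 230 CPM in Chow and 172 to 262 CPM in Chow/FGFR4 KD. Of 8 tested clock genes with the opposite phase, *Dbp* and *Per2* were called lower with KD on HFD, and the sum ran from 317 to 473 CPM in HFD and from 310 to 377 CPM in HFD/FGFR4 KD. *Ttr* fell by 0.51 and was the 1 of 5 tested hepatocyte markers below 0, where their median was 0.16. *Cfd*, of 2 tested adipocyte markers, fell by 1.57. Adipocyte markers summed to 25.8 to 32.6 CPM in HFD and 11.6 to 20.3 CPM in HFD/FGFR4 KD, with *Lep* at 0 in every library.

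With HFD in saline mice 7 of 7 macrophage markers rose, with a median of 1.24, and their sum ran from 51.3 to 60.4 CPM in Chow. Of the 6 clock genes with the phase of *Arntl* 5 were called lower, and of the 8 with the opposite phase 6 were called higher and 0 lay below 0. Of 9 stellate and endothelial markers 4 were called higher and 3 lay below 0, and of 5 erythroid markers 4 were called higher and 1 lower. Both tested adipocyte markers rose, *Cfd* by 2.82 and *Fabp4* by 1.74. Of 5 tested hepatocyte markers 3 lay below 0, and *Apoa1* and *Serpina1c* were called lower, by 0.25 and 0.68. *Alb* and *Ttr* had changes of 0.10 and 0.15 and were not called. With HFD under KD, 2 of 7 macrophage markers were called higher and 0 lay below 0, with a lowest change of 0.42 and a median of 0.52. Of the 6 clock genes with the phase of *Arntl* 5 were called lower and 6 lay below 0. Of the 8 with the opposite phase 7 were called higher and 0 lay below 0. Among the 9 stellate and endothelial markers 2 were called higher and 3 lay below 0. *Cfd* rose by 3.22 and *Fabp4* by 1.04. Of 2 tested cholangiocyte markers, *Sox9* fell by 0.78, while *Spp1* had a change of 0.40 and was not called.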

How the data were processed

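RNA-seq of mouse liver was analysed in 16 libraries, 4 in each group. The values deposited by the authors are estimated counts per gene, made with kallisto and summed with tximport after trimming with fastp, as the study and the submitters' processing notes give it. They need not be whole numbers, and no scaling was applied to them. The GEO labels name a KAPA mRNA HyperPrep library kit where the methods of the paper name another assay, and the label was followed. Gene models and positions were from GENCODE on GRCm38, with symbols for 98.5% of identifiers.

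Genes with under 1 CPM in more than 4 libraries were left out. TMM factors came from edgeR 4.0.16, and limma-voom (limma 3.58.1, R 4.3.3) was fitted with a mean for each of the 4 groups and all 16 libraries, without a replicate block. Calls follow the study: p under 0.05, and under 0.25 after Benjamini-Hochberg adjustment over all 11324 genes. Counts of calls are also given at 0.05 after adjustment. CPM are TMM scaled. Precision depends on the counts of a gene as well as on library totals. A p-value sets a change against the spread between mice within groups, pooled over the 4 groups and drawn toward that of other genes. Shared sequence is the percentage of 31-base words of the transcripts of a gene found in other genes. Values were prepared with Python 3.11.15, and the fit was tested on simulated data. No libraries of the same group were duplicates of one another: the 24 pairs within groups differed by more than counting noise. Pairs between groups were not compared in this way.

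The subunits, modules, pathway and marker lists and tests were chosen with earlier results of these data known. Full statistics are given for *Ndufa5* and *mt-Nd1*, for up to 5 rising and 5 falling called subunits with the smallest p (the 3 others with the smallest p where at most 1 was called), for subunits of the Q module, for the highest and lowest change, for called genes of the lists, and for the neighbours of *Ndufa5*. *Ndufa10* on HFD and the copies of *mt-Nd3*, *Ndufb4*, *Ndufa12* and *Ndufab1* were added after their values were seen. The values of 1 subunit are counted in the totals and are not reported here. As alternatives, the quasi-likelihood test of edgeR and DESeq2 1.42.0 on rounded counts were run, as well as other filters and scalings, quality weights, a replicate block, fits on only the groups compared, a stricter threshold, and fits without each library in turn.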

Additional observations from a re-analysis of the deposited data

Results flagged for a closer look

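A library was singled out where its distance from the closest other library of its group, divided by the range of the group, exceeded the 95% critical value of Dixon for 4 samples. Over 188 groups of values 10 were singled out, where chance at 1 in 20 gives 9.4. *Ndufs7* in HFD 1 was at 39.6 CPM beside 32.6 to 33.5 CPM in the others of its group. *mt-Nd2* in HFD/FGFR4 KD 1 was at 2650 CPM beside 2814 to 2834 CPM, and the summed mitochondrial subunits in the same library were at 12778 CPM beside 14028 to 14235 CPM. *Ndufc2* was at 44.3 CPM in this library beside 40.3 to 40.9 CPM. *Ndufb9* was at 108 CPM in HFD/FGFR4 KD 3 beside 122 to 125 CPM, and at 137 CPM in Chow/FGFR4 KD 3 beside 123 to 125 CPM. *mt-Nd3* was at 198 CPM in HFD 3 beside 165 to 170.0 CPM, without the counts of its copy. *mt-Nd5* was at 2387 CPM in HFD 2 beside 2710 to 2762 CPM. *Ndufa12* was at 33.5 CPM in Chow 2 beside 39.3 to 40.2 CPM. The summed nuclear subunits were at 2102 CPM in Chow/FGFR4 KD 4 beside 2250 to 2258 CPM. *Ndufa5* was singled out in none of the 4 groups.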

How the results depend on the processing

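*Ndufa5* kept its direction and its call under every alternative run with KD on HFD (-1.36 to -1.27, and -1.32 to -1.22 with a library left out) and with HFD under KD (-0.84 to -0.63, and -0.87 to -0.70). On chow it was between -0.54 and -0.49, or -0.62 and -0.44 with a library left out, and was never called. With HFD in saline mice it was reversed to 0.24 by library totals and was -0.08 to -0.001 with a library left out. The difference between KD effects was -0.77 and passed with DESeq2 (adjusted p 0.141, 1 subunit called in place of 0), and was -0.84 to -0.66 with a library left out. The cause of this was not tested.

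Counts of called subunits moved more. At an adjusted p under 0.05, 1, 0 and 1 subunits were called with KD on HFD, HFD in saline mice and HFD under KD, which follows from the stricter threshold. Library totals gave 15 with HFD in saline mice and 1 under KD, beside 37.9% and 20.1% of all genes, and medians of the other subunits of 0.22 and 0.074, beside all-gene medians of 0.29 and 0.14 (and -0.13 for the difference between KD effects). With HFD in saline mice upper quartile scaling gave 1 and the fit on only the groups compared 2, beside 25.4% and 24.6% of all genes. With HFD under KD no filter gave 5, beside 7.09% of all genes. With a library left out the counts were 1 to 2 with KD on HFD, 0 to 0 on chow, 1 to 6 with HFD in saline mice, 4 to 9 under KD and 0 to 0 for the difference. The share of all genes called moved as well. With HFD in saline mice it was 21.4% without Chow 1, where 6 subunits were called. With HFD under KD it was 13.2% without Chow/FGFR4 KD 4, where 7 were called. The cause was not tested.

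Same-numbered libraries of different groups did not deviate together (r across genes from -0.29 to 0.24 over 24 pairs), so the replicate numbers were not treated as pairs. With a replicate block *Ndufa5* was at -1.28, -0.52, -0.04 and -0.79 in the 4 comparisons. The count of called subunits with HFD in saline mice went from 4 to 2, beside 26% and 25.5% of all genes. The block moved no other count of called subunits by over 1.5 times. Over all genes, calls went from 356 to 228 with KD on HFD and from 4 to 2 for the difference of KD effects. Counts of 47 to 91 for *Ndufa5* in HFD/FGFR4 KD limit its precision.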
